A study of Mus musculus with 6 samples.

Results

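Nascent transcription of 8 genes of the PI3K, AKT and FOXO pathway was examined by PRO-seq in proliferating mouse muscle stem cells (MuSCs). The genes were taken by name, with earlier results of these data known. All 8 were found among the 14546 genes of the table: Pik3ca, Pik3r1, Pik3r3, Pik3c2b, Akt1, Akt2, Foxo1 and Foxo3. All 8 passed the filter on low values, which left 12451 genes for testing. PRO-seq maps engaged RNA polymerase by letting it add biotin-labelled nucleotides in isolated nuclei, and each gene has 1 value for its first 400 nt, the TSS region, and 1 for the rest of the transcript, the gene body. TSS values are in RPM, TSS reads scaled to a fixed total per library. Gene body values are in TPM, gene body reads divided by the length of the region and scaled to a fixed total of their own. The pausing index is the TSS value divided by the gene body value. As the regions were scaled separately, a shift of all genes between TSS and body does not show in these values. For the same reason, equal values in both regions do not mean equal polymerase density.

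The 3 Ctrl libraries carry the genotype Pax7CreERT/Suv4-20h1WT, and the 3 Kmt5b sKO libraries carry Pax7CreERT/Suv4-20h1KO. Suv4-20h1 is the older name of Kmt5b, which encodes an H4K20 methyltransferase. The Cre recombinase is tamoxifen-inducible, is expressed from Pax7 and is present in both groups, so that deletion is directed to Pax7-expressing cells. MuSCs of adult mice were purified from limb and trunk muscle with magnetic beads and expanded in culture. The labels number the libraries within each group without naming the animals, so that p-values measure the spread between these libraries.

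PI3K phosphorylates membrane inositol lipids when growth factor receptors are engaged, and the lipid product recruits AKT kinases to the membrane, where they are activated. AKT phosphorylates FOXO transcription factors, which then leave the nucleus, while unphosphorylated FOXO proteins activate genes of quiescence, stress resistance and protein degradation. In muscle, the pathway is known for its part in growth and atrophy, and FOXO3 is known as a factor of MuSC quiescence.

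The libraries held 926904 to 3246052 TSS reads and 7425426 to 16249086 gene body reads over the listed genes. Kmt5b itself was not lower in the Kmt5b sKO libraries, with gene body values of 30.6, 35.4 and 38.5 TPM in Ctrl against 37.8, 35.0 and 42.6 TPM in Kmt5b sKO. The value covers the whole transcript and not the deleted part alone, so it does not check the genotype labels. The 10 MuSC and myoblast markers summed to 2396, 2256 and 1596 TPM in Ctrl against 2299, 2102 and 2825 TPM in Kmt5b sKO. Of these 10, 4 were higher on average in Kmt5b sKO and none was called. Among them, Myod1, the myoblast transcription factor, ranged from 855 to 1328 TPM over the 6 libraries, and Pax7 from 25.5 to 53.7 TPM. Of 6 endothelial markers, the 3 analysed (Pecam1, Cdh5 and Tek) summed to 2.50 to 4.23 TPM in Ctrl against 4.38 to 5.05 TPM in Kmt5b sKO. Of 7 markers of fibro-adipogenic cells, the 5 analysed summed to 11.7 to 22.6 TPM in Ctrl against 15.6 to 21.8 TPM in Kmt5b sKO, most of it from Gsn (8.50 to 19.8 TPM), while Pdgfra reached at most 1.06 TPM. Of 6 leukocyte markers, the 3 analysed differed widely in level, with Cd68 at 214 to 402 TPM, Cd3e at 4.31 to 21.25 TPM and Itgam at 0.31 to 0.65 TPM. Their sum was 219 to 423 TPM in Ctrl against 332 to 340 TPM in Kmt5b sKO. Lists of cell state moved with genotype. The summed gene body TPM of 18 myogenic differentiation genes was 4740, 6034 and 3315 in Ctrl against 7224, 6505 and 9060 in Kmt5b sKO, with 17 of 18 higher on average and 2 called. The sum of 8 mature fibre markers overlapped, with 382, 496 and 235 in Ctrl against 631, 470 and 962 in Kmt5b sKO. Of these, the 5 tested were all higher on average and none was called. The sum of 14 genes of S and M phase was 949, 887 and 769 in Ctrl against 456, 506 and 519 in Kmt5b sKO, with 9 of 14 called lower. The sum of 4 Schwann cell markers was 8.75 to 11.7 in Ctrl against 15.8 to 25.8 in Kmt5b sKO. The part of these shifts in the values below was not tested. A lower share of cells of one state and less RNA synthesis per cell cannot be told apart in such bulk libraries.

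The listed transcripts (GRCm38) differ in how well the TSS region stands for a gene's own start. Foxo1 (chr3:52268336-52353221, plus strand, 3 exons) has 1 annotated coding start, and its listed transcript spans the whole gene. Pik3r1 (chr13:101680563-101768217, minus strand, 16 exons) was also listed over its whole span, and Pik3r3 (chr4:116221661-116303056, plus strand, 10 exons) over 99.95% of it. The gene body of Pik3r3 shares 78181 nt and its strand with a second protein-coding annotation, Gm49337, so reads of these annotations cannot be told apart. Pik3c2b (chr1:133046012-133108687, plus strand, 33 exons) and Akt1 (chr12:112653821-112674276, minus strand, 14 exons) were listed over nearly all of their genes. Akt2 (chr7:27605858-27639453, plus strand, 14 exons) has 11 annotated coding starts, the farthest of them 14306 nt upstream of the listed one. The listed Akt2 transcript covers 68.18% of the gene, and any polymerases from upstream starts are counted in its TSS region as well as in its gene body. Foxo3 (chr10:42247431-42276755, minus strand, 3 exons) was listed with a short isoform that covers 30.9% of the gene. The listed Pik3ca transcript (chr3:32436151-32468486, plus strand, 20 exons) begins 38480 nt downstream of the farthest annotated start, and 345 of the 400 nt of its TSS region are coding. Polymerases that had started at the upstream Pik3ca start are therefore counted in this TSS region.

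The promoters of 3 genes are shown because their TSS values did not overlap between the groups (below). Each is a RefSeq window of 250 bases before and 50 after a RefSeq start in GRCm38.p6, written 5′ to 3′ on the gene's strand. Of the 2 windows of Pik3r1, 3 of Pik3r3 and 4 of Akt2, the one nearest the listed start was taken. Capitals mark E-boxes (CANNTG, the letters bound by MYOD1 and other bHLH factors). A FOXO motif (GTAAACA, either strand) was also searched and had no match in any of the 8 promoters.
Pik3r1 (chr13:101768168-101768467, minus strand): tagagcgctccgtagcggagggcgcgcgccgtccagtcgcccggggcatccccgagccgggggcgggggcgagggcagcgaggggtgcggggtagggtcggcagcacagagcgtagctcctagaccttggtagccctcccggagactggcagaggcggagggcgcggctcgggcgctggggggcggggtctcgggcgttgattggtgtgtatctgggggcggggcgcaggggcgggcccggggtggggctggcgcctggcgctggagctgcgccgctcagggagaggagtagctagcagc
Pik3r3 (chr4:116221358-116221657, plus strand): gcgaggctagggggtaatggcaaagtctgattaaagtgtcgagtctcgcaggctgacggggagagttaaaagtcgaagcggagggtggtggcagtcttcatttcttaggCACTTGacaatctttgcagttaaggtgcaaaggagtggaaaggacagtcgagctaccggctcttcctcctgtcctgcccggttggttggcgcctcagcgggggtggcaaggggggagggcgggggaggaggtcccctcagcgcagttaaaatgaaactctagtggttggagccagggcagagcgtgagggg
Akt2 (chr7:27605547-27605846, plus strand): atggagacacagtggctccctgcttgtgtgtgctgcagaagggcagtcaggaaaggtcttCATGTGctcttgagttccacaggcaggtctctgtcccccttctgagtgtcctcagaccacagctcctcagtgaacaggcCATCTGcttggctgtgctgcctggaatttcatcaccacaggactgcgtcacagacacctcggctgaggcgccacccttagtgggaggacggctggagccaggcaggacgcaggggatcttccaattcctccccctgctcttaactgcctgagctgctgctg
The Pik3r1 window starts from the listed TSS, holds 34 CG dinucleotides in 75.7% GC and has no E-box. The Pik3r3 window, whose RefSeq start lies 53 nt upstream of the listed one, holds 14 CG dinucleotides and 1 E-box. The Akt2 window, 61 nt upstream in the same sense, holds 5 CG dinucleotides and 2 E-boxes. The median promoter among 32851 windows held 7 CG dinucleotides, 72.3% held an E-box and 3.65% the FOXO motif. The 3 promoters thus ranged from a CG-rich window to that of Akt2, just below the median in CG dinucleotides.

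AKT genes had the highest gene body levels of the 8, and the PI3K regulatory subunits the lowest. In Ctrl, the gene body of Akt2, the AKT isoform known for insulin-stimulated glucose uptake, was at 63.6 ± 15.3 TPM (SD, n = 3), above 92.0% of the genes tested. Akt1, the isoform known for growth and survival, was at 43.4 ± 12.3 TPM, and Akt2 lay above it in 6 of 6 libraries although the Ctrl ranges overlapped. Foxo1 (28.9 ± 12.04 TPM), Pik3c2b (27.4 ± 3.4 TPM) and Pik3ca (23.9 ± 1.8 TPM) followed, with Ctrl ranges that overlapped from each gene to the next. Foxo3 (13.7 ± 2.0 TPM) lay below Pik3ca and above Pik3r1 (9.57 ± 2.06 TPM) without overlap in Ctrl, while Pik3r1 and Pik3r3 (8.99 ± 1.48 TPM) overlapped. The median gene stood at 15.9 TPM.

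The order was different at the TSS. Pik3r3 had the highest TSS value in Ctrl (84.4 ± 5.4 RPM, SD, n = 3, above 89.3% of genes), and Foxo1 was next with 78.4 ± 28.6 RPM. Akt2 (46.6 ± 13.6 RPM), Pik3r1 (39.9 ± 4.8 RPM) and Akt1 (34.9 ± 6.3 RPM) overlapped from one to the next. Foxo3 (17.7 ± 0.42 RPM) lay clear of Akt1, and Pik3c2b (14.9 ± 3.9 RPM) and Pik3ca (5.83 ± 4.48 RPM) were lowest. As all TSS regions are 400 nt long, these values compare between genes. Pik3ca rested on 13 to 21 TSS reads a library, and its TSS values are correspondingly imprecise.

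**Figure D1:**
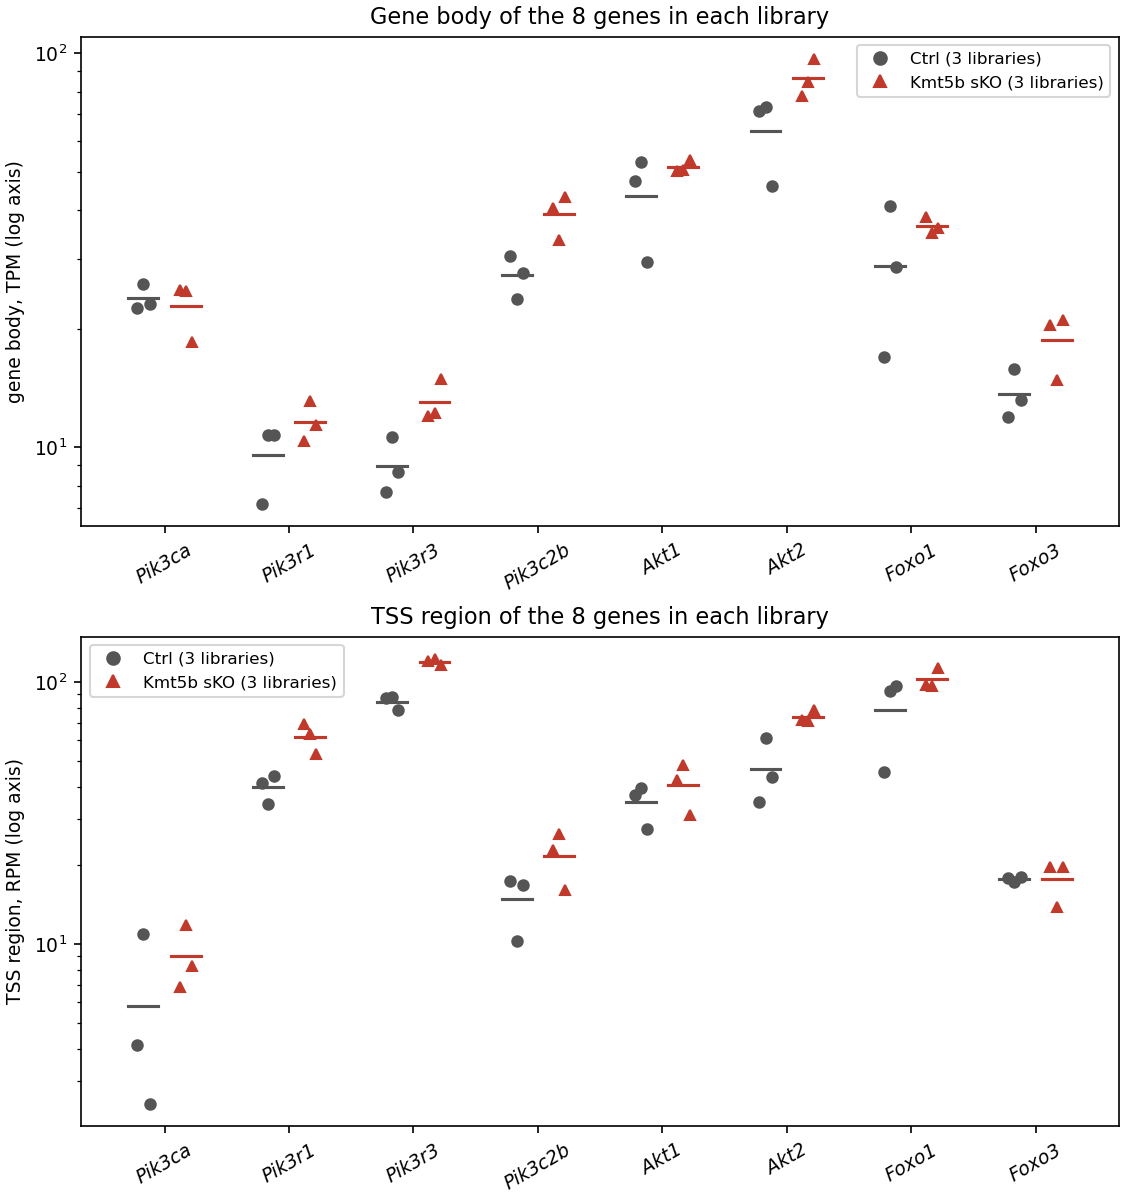
Gene body values (upper panel, TPM) and TSS region values (lower panel, RPM) of the 8 genes on log axes. Points are libraries (grey circles, 3 Ctrl; red triangles, 3 Kmt5b sKO) and bars are group means. The Kmt5b sKO libraries lie above all Ctrl libraries for Pik3r3, Pik3c2b and Akt2 in the gene body and for Pik3r1, Pik3r3 and Akt2 at the TSS.

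The comparison of Kmt5b sKO with Ctrl asked whether loss of the methyltransferase altered nascent transcription of the pathway relative to the other genes. As values are scaled to a fixed total per library, a rise or fall shared by all genes cannot be seen here. None of the 8 genes passed an adjusted p under 0.1 with limma in the gene body, where 2.99% of all genes were called. At an unadjusted p under 0.05, 3 of the 8 were higher in Kmt5b sKO, beside 9.45% of all genes, and none was lower. All 3 Kmt5b sKO libraries lay above all Ctrl libraries for 3 of the 8, beside 12% of all genes, and they lay below for none, beside 9.34%. The median log2 fold change of the 8 genes was 0.43, beside 0.02 over all genes tested, and 7 of 8 were above 0, beside 53.8%. With edgeR on the reads recovered from the values, 0 of the 8 were called, beside 6.01% of all genes. With DESeq2, 2 were called, Pik3r3 (adjusted p = 0.0601) and Pik3c2b (adjusted p = 0.0822), beside 10.4% of all genes.

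At the TSS, 0 of the 8 genes were called with limma, where 1.66% of all genes were called. Again 3 of the 8 were higher at an unadjusted p under 0.05, beside 7.35% of all genes, and the groups did not overlap for 3, all with Kmt5b sKO above, beside 10.2% (5.33% of all genes had Kmt5b sKO below). The median log2 fold change was 0.53 over the 8 and 0.08 over all genes tested, and 7 of 8 were above 0, beside 58.2%. Neither edgeR (2.24% of all genes called) nor DESeq2 (2.37%) called any of them. Akt2 alone was called when Ctrl 2 was left out (log2 fold change 0.92, adjusted p = 0.0691, limma), where 408 of all genes were called.

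**Figure D2:**
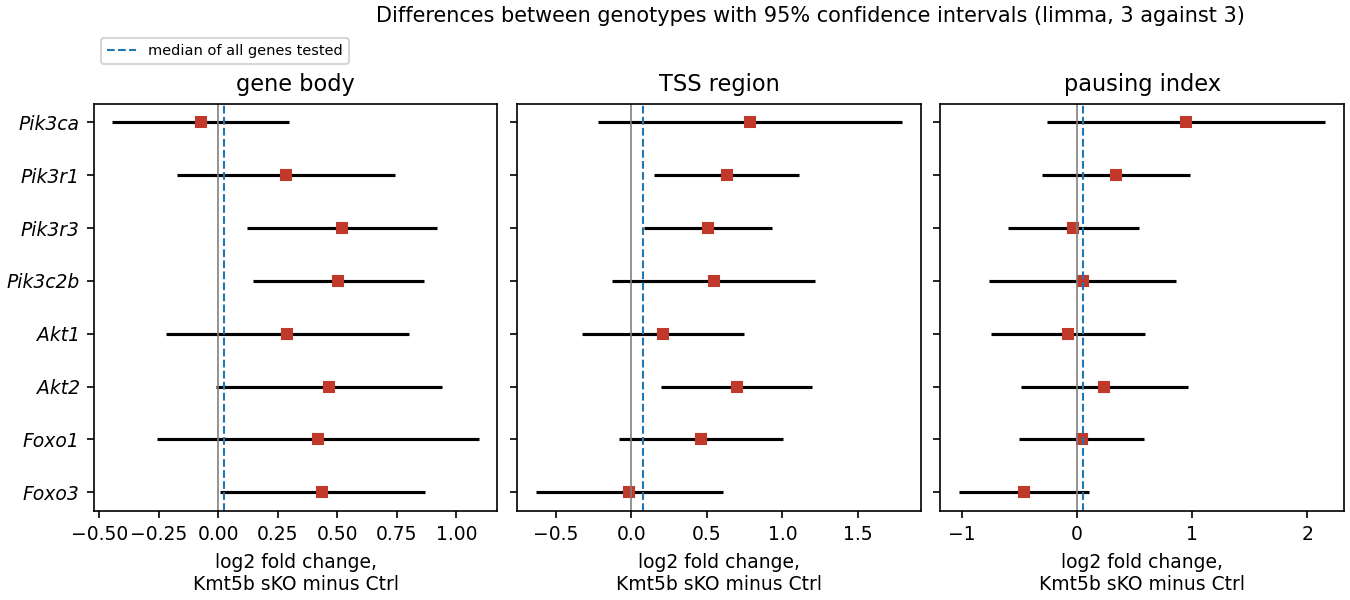
Log2 fold change of Kmt5b sKO over Ctrl for the 8 genes in the gene body, at the TSS and for the pausing index. Squares are limma estimates from 3 against 3 libraries, bars are 95% confidence intervals, and the dashed line is the median of all genes tested; in the gene body the intervals of Pik3r3, Pik3c2b and Foxo3 lie above 0.

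Of the PI3K subunits, Pik3c2b and Pik3r3 were higher in every Kmt5b sKO library than in any Ctrl library in the gene body, whereas Pik3ca was not. Pik3c2b encodes a class II PI3K, which acts without the regulatory subunits of class I enzymes. Its gene body was at 30.6, 23.9 and 27.7 TPM in Ctrl against 40.6, 33.5 and 43.1 TPM in Kmt5b sKO. The log2 fold change was 0.50 (95% confidence interval 0.15 to 0.86, adjusted p = 0.171, limma), on 1368 to 2807 reads a library. At the TSS its groups overlapped, with 17.4, 10.3 and 16.9 RPM in Ctrl against 23.0, 26.4 and 16.1 RPM in Kmt5b sKO. The TSS log2 fold change of 0.54 had an interval from -0.12 to 1.21 and was 0.31 without Ctrl 2.

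Pik3r3 encodes p55-gamma, a short regulatory subunit of class I PI3K, and was, with Akt2, 1 of 2 genes whose groups were apart in both regions. Its gene body was at 7.71, 10.6 and 8.64 TPM in Ctrl against 12.03, 12.2 and 14.9 TPM in Kmt5b sKO, a log2 fold change of 0.52 (0.12 to 0.92, adjusted p = 0.204, limma). Its TSS was at 87.2, 87.9 and 78.2 RPM in Ctrl against 121, 123 and 116 RPM in Kmt5b sKO, a log2 fold change of 0.51 (0.08 to 0.93, adjusted p = 0.324, limma). Both regions thus differed by a similar amount, and the spread within each group was narrow at the TSS, with SDs of 5.38 and 3.32 RPM.

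Pik3r1 encodes p85-alpha, the main regulatory subunit, which stabilises the catalytic p110 proteins and restrains them at rest. Its groups were apart only at the TSS. The TSS values were 41.4, 34.5 and 43.8 RPM in Ctrl against 69.5, 63.4 and 53.4 RPM in Kmt5b sKO, a log2 fold change of 0.63 (0.15 to 1.11, adjusted p = 0.247, limma). The gene body, at 7.19, 10.7 and 10.8 TPM in Ctrl against 10.4, 13.1 and 11.4 TPM in Kmt5b sKO, overlapped, and its log2 fold change of 0.28 (-0.17 to 0.74) fell to 0.10 without Ctrl 1. Another annotation, Gm36638, covers all 400 nt of the Pik3r1 TSS region on the same strand.

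Pik3ca encodes the catalytic subunit p110-alpha and had the gene body value least different between the groups. It was at 22.6, 26.0 and 23.1 TPM in Ctrl against 25.0, 25.0 and 18.5 TPM in Kmt5b sKO, a log2 fold change of -0.07 (-0.44 to 0.30, adjusted p = 0.882, limma). The interval leaves room for a difference of either sign. At the TSS, 4.12, 10.9 and 2.46 RPM in Ctrl stood beside 6.88, 11.9 and 8.28 RPM in Kmt5b sKO, and the log2 fold change of 0.79 (-0.22 to 1.79) was 0.36 without Ctrl 3 and 1.33 without Ctrl 2.

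Of the AKT genes, Akt2 was higher in every Kmt5b sKO library than in any Ctrl library in both regions, and Akt1 overlapped in both. Both regions of Akt2 can hold polymerases from the upstream starts described above, so they are not separate evidence. The Akt2 TSS was at 34.9, 61.5 and 43.6 RPM in Ctrl against 72.1, 71.3 and 78.7 RPM in Kmt5b sKO, a log2 fold change of 0.70 (0.20 to 1.20, adjusted p = 0.204, limma). Its gene body was at 71.4, 73.3 and 46.0 TPM in Ctrl against 78.1, 84.4 and 96.8 TPM in Kmt5b sKO, a log2 fold change of 0.47 (-0.01 to 0.94, adjusted p = 0.326, limma). Ctrl 3 was the low library, and without it the gene body difference was 0.25.

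Akt1 showed the same low library. Its gene body was at 47.5, 53.1 and 29.5 TPM in Ctrl against 50.4, 50.6 and 53.7 TPM in Kmt5b sKO, a log2 fold change of 0.29 (-0.22 to 0.80) that was 0.04 without Ctrl 3 and 0.46 without Ctrl 2. Its TSS was at 37.3, 39.6 and 27.7 RPM in Ctrl against 42.3, 48.2 and 31.3 RPM in Kmt5b sKO, a log2 fold change of 0.21 (-0.32 to 0.75). The TSS value was 0.06 without Ctrl 3, 0.08 without Kmt5b sKO 2 and 0.39 without Kmt5b sKO 3. Ctrl 3 also had the lowest summed level of the differentiation genes given above, and the part of that in the AKT values was not tested.

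Of the FOXO genes, Foxo3 had a higher mean in the Kmt5b sKO gene body and nearly equal means at the TSS, and Foxo1 varied mainly between the Ctrl libraries. The Foxo3 gene body was at 11.96, 15.8 and 13.2 TPM in Ctrl against 20.4, 14.8 and 21.1 TPM in Kmt5b sKO. The groups overlapped through Kmt5b sKO 2, and the log2 fold change was 0.44 (0.01 to 0.87, unadjusted p = 0.047, adjusted p = 0.309, limma). At the TSS, Foxo3 was at 17.9, 17.2 and 18.0 RPM in Ctrl against 19.7, 13.9 and 19.8 RPM in Kmt5b sKO, a log2 fold change of -0.01 (-0.63 to 0.61).

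Foxo1 is the FOXO gene known in muscle for control of myoblast fusion and atrophy genes. Its gene body was at 16.96, 41.0 and 28.7 TPM in Ctrl against 38.5, 34.9 and 36.1 TPM in Kmt5b sKO, so that all Kmt5b sKO values lay inside the Ctrl range. The log2 fold change of 0.42 (-0.26 to 1.10) was 0.09 without Ctrl 1 and 0.71 without Ctrl 2. The TSS showed the same low library, with 45.5, 92.5 and 97.2 RPM in Ctrl against 98.0, 97.1 and 113 RPM in Kmt5b sKO. The TSS log2 fold change of 0.46 (-0.08 to 1.01) fell to 0.11 without Ctrl 1.

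The pausing index, the level of polymerase at the start relative to the body, separated the 8 genes widely and the genotypes little. In Ctrl, Pik3r3 had an index of 9.55 ± 1.57 (SD, n = 3), above 98.3% of the 11698 genes with an index, and Pik3r1 of 4.34 ± 1.30. Foxo1 followed with 2.78 ± 0.57 and Foxo3 with 1.32 ± 0.21, on either side of the median gene at 1.55. Akt1 (0.823 ± 0.101), Akt2 (0.758 ± 0.240), Pik3c2b (0.538 ± 0.092) and Pik3ca (0.236 ± 0.164) had low indices. The Ctrl ranges of Pik3r3 and Pik3r1, Foxo1 and Foxo3, Foxo3 and Akt1, and Pik3c2b and Pik3ca did not overlap. Among the 8, the regulatory subunits Pik3r3 and Pik3r1 thus had the highest indices. The catalytic subunits Pik3c2b and Pik3ca had the lowest, with the TSS region of Pik3ca placed inside the gene as described above. That of Akt2 also lies downstream of other annotated starts. The order did not hold for class I relatives outside the 8. In Ctrl, regulatory Pik3r2 had an index of 0.697 ± 0.259, and catalytic Pik3cb and Pik3cd had 0.293 ± 0.163 and 5.09 ± 1.1.

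**Figure D3:**
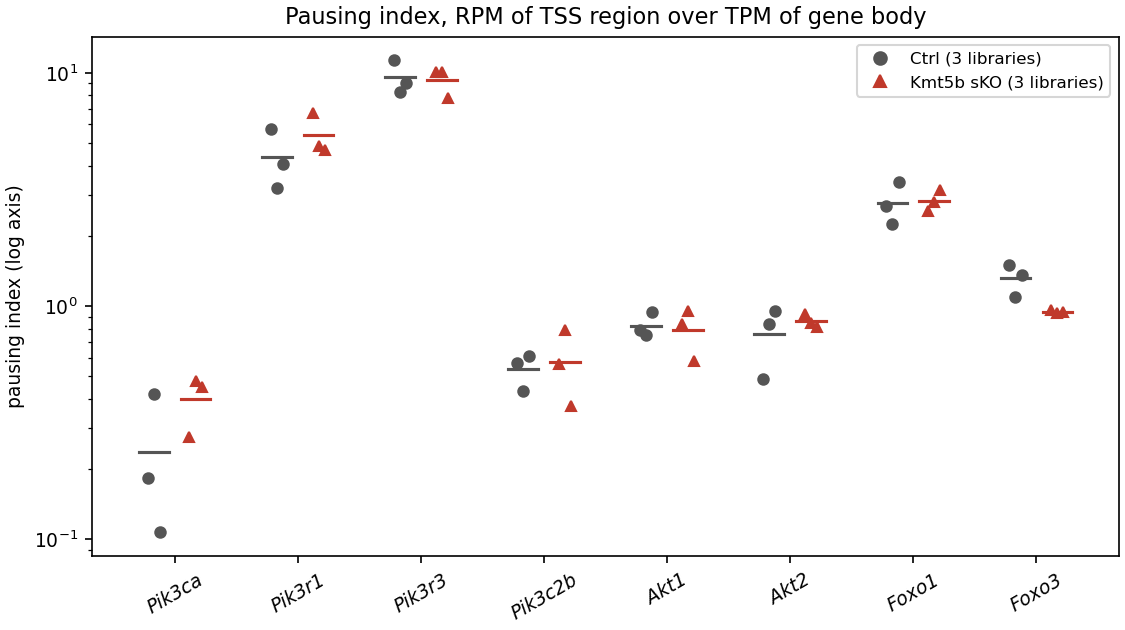
Pausing index of the 8 genes, TSS RPM over gene body TPM, on a log axis. Points are libraries (grey circles, 3 Ctrl; red triangles, 3 Kmt5b sKO) and bars are group means; Pik3r3 lies between 7.80 and 11.3 in all libraries, and the 3 Kmt5b sKO libraries lie below all Ctrl libraries only for Foxo3.

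None of the 8 genes was called for the pausing index with limma, either at an adjusted p under 0.1 (0% of all genes called) or at an unadjusted p under 0.05 (3.86% of all genes). Foxo3 was the only gene of the 8 whose groups did not overlap, with 1.497, 1.09 and 1.36 in Ctrl against 0.964, 0.935 and 0.938 in Kmt5b sKO, beside 3.09% of all genes with Kmt5b sKO below. Its log2 fold change was -0.46 (-1.03 to 0.10, unadjusted p = 0.095, limma), on 21 to 95 TSS reads a library. Pik3ca had the largest difference in the other direction, 0.95 (-0.27 to 2.16), on the few TSS reads given above, and the value was 0.49 without Ctrl 3 and 1.48 without Ctrl 2. The intervals of the other 6 genes all held 0.

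Whether 1 member of a family differed more than another was tested within libraries for 4 pairs of gene body values, with a two-sided exact permutation test whose smallest possible p is 0.1. The ratio of Akt2 to Akt1 was 1.504, 1.38 and 1.56 in Ctrl against 1.55, 1.67 and 1.80 in Kmt5b sKO, a log2 difference of 0.17 (exact p = 0.2, adjusted over the 4 pairs 0.4). The ratio of Pik3c2b to Pik3ca was 1.35, 0.918 and 1.20 in Ctrl against 1.62, 1.34 and 2.33 in Kmt5b sKO, a log2 difference of 0.59 (exact p = 0.2, adjusted 0.4). The log2 differences of Pik3r3 over Pik3r1 (0.24, exact p = 0.3) and of Foxo3 over Foxo1 (0.02, exact p = 1) were smaller. As no p of this test can fall under 0.1, it does not tell whether the pairs differ.

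Shares within families, chosen after their values were seen and given with no test, placed the PI3K and FOXO genes beside their closest relatives. Among the class IA regulatory subunits, Pik3r3 held 26.7, 27.4 and 29.1% in Ctrl against 35.5, 31.1 and 35.9% in Kmt5b sKO. Pik3ca held 70.4 to 78.2% of the class I catalytic genes Pik3ca, Pik3cb and Pik3cd. Foxo1 held 21.2, 38.5 and 40.4% of the FOXO total in Ctrl against 34.8, 37.7 and 31.5% in Kmt5b sKO, with the low Ctrl 1 library again apart.

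**Figure D4:**
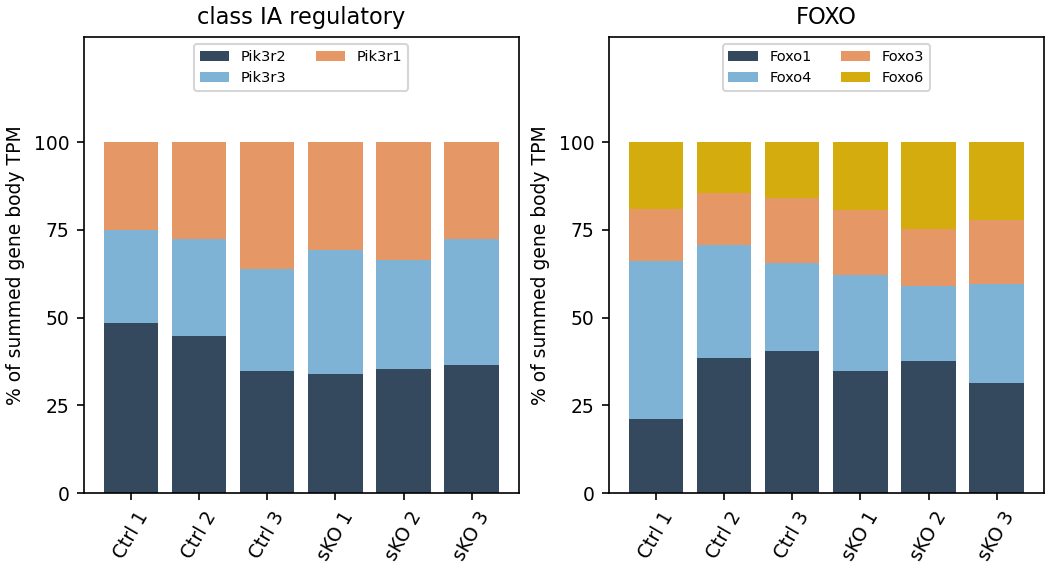
Share of each gene in the summed gene body TPM of its family (class IA regulatory PI3K subunits and FOXO), in percent, for each of the 6 libraries. The Pik3r3 segment is 26.7 to 29.1% in the Ctrl libraries and 31.1 to 35.9% in the Kmt5b sKO libraries.

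Of 78 other listed genes of the pathway, 76 were tested. In the gene body, 2 were called higher in Kmt5b sKO and 1 lower with limma, beside 1.61% and 1.38% of all genes. The median log2 fold change over the 76 was 0.06 and 48 of them were above 0, so the other pathway genes lay nearer to all genes (median 0.02) than the 8 did. Both the 8 and the pathway lists were chosen with earlier results of these data known, which limits this comparison. By role, 2 of 7 receptors and adaptors (median -0.22), 4 of 7 other PI3K subunits (0.01), 8 of 10 phosphatases (0.10), 4 of 8 kinases next to AKT (-0.01), 11 of 16 mTOR genes (0.05), 5 of 6 other FOXO genes and regulators (0.14) and 14 of 22 FOXO targets (0.10) had a log2 fold change above 0.

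The genes called in the gene body were a lipid phosphatase, a FOXO gene and a FOXO target. Inpp5d, which encodes SHIP1, a phosphatase of the PI3K product known best from blood cells, rose from 1.16, 1.24 and 1.12 TPM in Ctrl to 2.26, 2.66 and 3.66 TPM in Kmt5b sKO (log2 fold change 0.98, SE 0.22, adjusted p = 0.0975, limma). Its TSS region held only 0 to 5 reads a library, with 0, 2.87 and 0 RPM in Ctrl against 0.33, 0 and 0.92 RPM in Kmt5b sKO. The TSS thus did not show the same rise. Foxo6 rose from 15.2, 15.4 and 11.3 TPM to 21.4, 23.0 and 25.3 TPM (0.72, SE 0.16, adjusted p = 0.0982, limma). Cdkn1b, which encodes the cell cycle inhibitor p27, fell from 43.2, 51.8 and 42.8 TPM to 31.1, 28.8 and 28.9 TPM (-0.62, SE 0.13, adjusted p = 0.0806, limma). At the TSS, the groups overlapped for Foxo6 (log2 fold change 0.59, adjusted p = 0.783, limma), on 6 to 17 reads a library. They also overlapped there for Cdkn1b (-0.27, adjusted p = 0.800, limma). All 3 gene body calls lay close to the threshold with limma. For Inpp5d, Foxo6 and Cdkn1b, adjusted p-values were 0.0244, 0.0461 and 0.0695 with edgeR, which called 6.01% of all genes. With DESeq2, which called 10.4% of all genes, they were 1.64e-05, 0.00248 and 0.0108. The limma call of Inpp5d was lost when any 1 of the 6 libraries was left out. Those of Foxo6 and Cdkn1b were lost when any 1 other than Ctrl 3 was left out. Adjusted p-values in these fits were from 0.102 to 0.295 (limma). Of the leukocyte markers given above, Cd68 and Cd3e lay above Inpp5d and Itgam below it in each of the 6 libraries. Their summed level came mostly from Cd68 and overlapped between the groups. The part of leukocyte content in the Inpp5d values was not tested.

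At the TSS, Trim63 was the single pathway gene called, beside 0.932% of all genes called higher and 0.731% called lower. It encodes MuRF1, a ubiquitin ligase of muscle atrophy, and rose from 12.4, 36.2 and 25.0 RPM in Ctrl to 69.2, 61.4 and 96.6 RPM in Kmt5b sKO (log2 fold change 1.71, SE 0.32, adjusted p = 0.0289, limma). The call was lost without Ctrl 1 (adjusted p = 0.215) and without Kmt5b sKO 3 (0.132). Its gene body was at 19.3, 31.5 and 17.4 TPM in Ctrl against 36.1, 42.4 and 58.1 TPM in Kmt5b sKO, with an adjusted p of 0.129 that was 0.0892 without Ctrl 2 (limma). Trim63 is also expressed in differentiating muscle cells, whose list was higher in Kmt5b sKO as given above, and the part of that in this call was not tested.

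The pathway genes next in order did not pass. Skp2, which encodes an F-box protein that targets p27 and FOXO1, had gene body values of 40.2, 33.9 and 27.5 TPM in Ctrl against 21.4, 19.9 and 21.2 TPM in Kmt5b sKO (adjusted p = 0.107, limma). The groups of Skp2 did not overlap, and it was called without Ctrl 3 (adjusted p = 0.0393, limma), with edgeR (0.03997) and with DESeq2 (0.00106).

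At the TSS, Gadd45a, a DNA damage response gene, stood at 138, 141 and 163 RPM in Ctrl beside 288, 217 and 233 RPM in Kmt5b sKO (adjusted p = 0.112, limma), and the gene was called without Ctrl 3 (adjusted p = 0.0797). Inpp4b, a lipid phosphatase gene, had a log2 fold change of 1.39 (adjusted p = 0.135, limma), which was 0.87 without Ctrl 1 and 1.95 without Ctrl 2 (adjusted p = 0.00792). Mtor, the kinase gene downstream of AKT, had one of 0.82 (adjusted p = 0.137, limma). Grb10, an adaptor gene that dampens insulin receptor signalling, had one of -0.66 (adjusted p = 0.238, limma) and was called without Ctrl 2 (adjusted p = 0.0677).

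**Figure D5:**
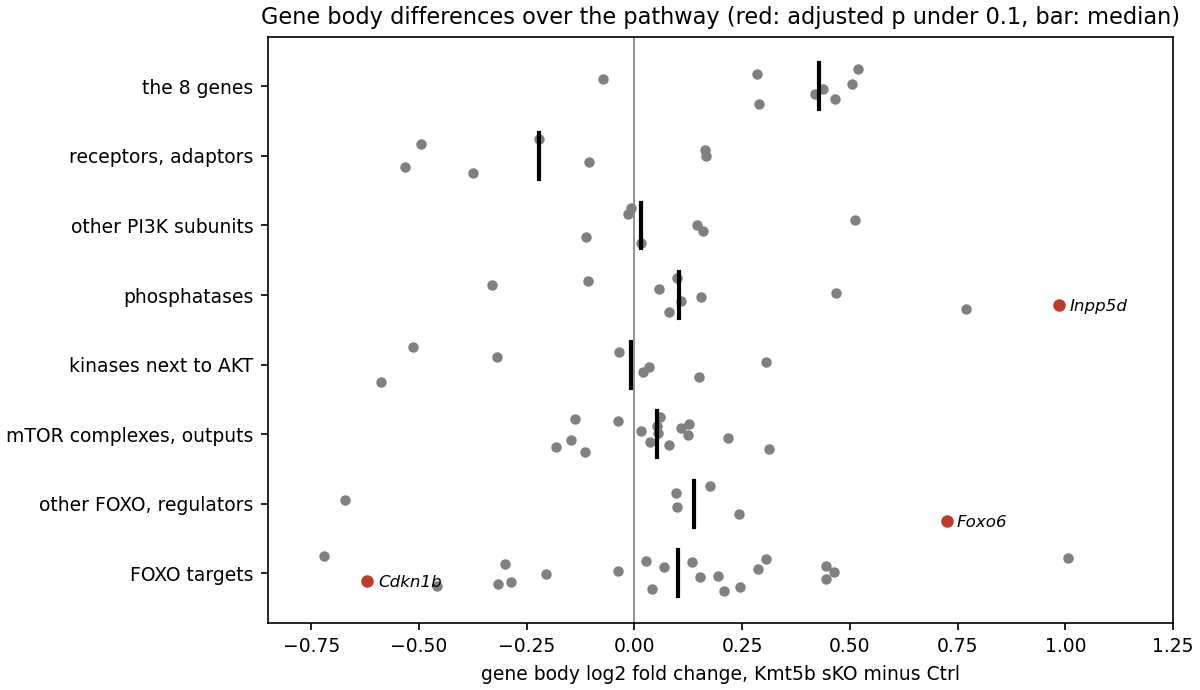
Gene body log2 fold change of Kmt5b sKO over Ctrl for the 8 genes and the 76 other pathway genes tested, by role. Each point is a gene, black bars are medians, and red points are genes at an adjusted p under 0.1 (limma); the 3 red points are Inpp5d, Foxo6 and Cdkn1b, and the median of the 8 genes is 0.43.

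Pathway genes whose gene body profile over the 6 libraries was most like that of Pik3c2b, Pik3r3 and Foxo3 were found by the root mean square difference of log2 values, each centred on its own mean, over 83 candidates. For Foxo3 these were Inppl1, which encodes the lipid phosphatase SHIP2, Sod2, which encodes a mitochondrial superoxide dismutase, and Atg12, an autophagy gene, at 0.14 each, beside a median of 0.33. For Pik3r3 they were Foxo3 (0.14), Inppl1 (0.17) and Atg12 (0.19), beside a median of 0.31. For Pik3c2b they were Bcl6, a repressor gene (0.19), Inppl1 (0.19) and Inpp5e, another lipid phosphatase gene (0.21), beside a median of 0.35. Inppl1 appeared in all 3 sets. It stood at 128, 140 and 103 TPM in Ctrl against 179, 144 and 191 TPM in Kmt5b sKO, and these are descriptions of 6 libraries that share 1 contrast.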

How the data were processed

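PRO-seq libraries of 3 Ctrl and 3 Kmt5b sKO MuSC samples were analysed. Reads were trimmed with Trimmomatic 0.39, aligned to GRCm38 with STAR 2.6.1d keeping 1 random position of a multi-mapping read, and deduplicated with Picard 2.18.16, per the labels and the study's methods. The authors counted sense-strand reads of each protein-coding isoform and deposited 1 isoform per gene, the one with the largest mean TSS value. The authors deposited TSS values under the name TPM, and as all regions are 400 nt these are RPM. The authors deposited gene body values as TPM. Every per-sample column was mapped to a sample (0 unused).

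The fit used limma 3.58.1 under R 4.3.3 (eBayes, trended prior variance) with a genotype term alone, over autosomal genes whose mean reached 0.5 at the TSS and over the body. Values entered as log2 after adding a pseudocount of 0.5, a scale on which differences of low genes come out too small. A gene was called when its p, adjusted by Benjamini-Hochberg over all tested genes, was under 0.1. For the pausing index no pseudocount was added. Read numbers were derived from the smallest step of each library's values (100% of TSS values whole within 0.0055 RPM) and tested with edgeR 4.0.16 and DESeq2 1.42.0. The other alternatives were pseudocounts of 0.1 and 1, no filter, X and Y kept, no trend, 2 scalings, a threshold of 0.05, the replicate number as a block and leaving out each library. A pausing index from unscaled reads was added after seeing the data. The scripts were tested on simulated data.

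The 8 genes, the pathway and marker lists and the tests were chosen with earlier results of these data known. Beside the 8 genes, the text names each called pathway gene, the 5 with the lowest p per region and, for each of the 8 with an unadjusted gene body p under 0.05, the 3 most similar profiles. For 1 further gene that the rule holds, results are not reported here. The family shares and the pausing indices of Pik3r2, Pik3cb and Pik3cd were added after their values were seen. Of the listed gene IDs, 99.88% were found in GENCODE vM21 (GRCm38). Promoters came from RefSeq, with 8 of 8 genes matched. Grb14 did not pass the filter, Foxo4 lies on X, and the PI3K genes Pik3cg, Pik3r5, Pik3r6, Pik3c2g and Pik3ap1 were not analysed here. Protein sequences were not used here.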

Additional observations from a re-analysis of the deposited data

How the results depend on the processing

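The 8 genes gave no gene body call under any alternative other than DESeq2 on recovered reads, which called 2, and leaving out single libraries gave 0 to 0. At the TSS, leaving out single libraries gave 0 to 1 calls and every other alternative 0, and the pausing index gave 0 throughout. Of the 8 genes' recomputed fold changes, 125 gene body and 126 TSS values kept their direction and side of the threshold. Pathway calls in the gene body, 3 in the main test, numbered 1 with a pseudocount of 0.1, 1 with no filter, 5 with libraries centred on the median, 0 at a threshold of 0.05, 6 with edgeR, 10 with DESeq2 and 0 to 7 without single libraries. Pathway calls at the TSS, 1 in the main test, numbered 0 with no filter, 0 without a trend, 2 with quantile normalization and 0 to 3 without single libraries. The cause was not tested. Over all genes, gene body calls ranged from 372 in the main test to 748 with edgeR, 1295 with DESeq2, 1 at a threshold of 0.05, and 0 to 836 without single libraries. TSS calls fell from 207 to 0 with no filter, 0 without a trend and 64 at 0.05, and were 1 to 408 without single libraries.

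Without single libraries the log2 ratio of Foxo3 over Foxo1 ranged from -0.16 to 0.27, and the ratios of Akt2 over Akt1 (0.12 to 0.23), Pik3r3 over Pik3r1 (0.12 to 0.38) and Pik3c2b over Pik3ca (0.37 to 0.77) kept their sign. Fold changes near 0 changed sign in the same way for Pik3ca in the gene body (-0.15 to 0.068), Foxo3 at the TSS (-0.10 to 0.15) and the pausing index of Pik3r3 (-0.13 to 0.094), Akt1 (-0.23 to 0.13), Akt2 (-0.053 to 0.43), Pik3c2b (-0.21 to 0.33) and Foxo1 (-0.10 to 0.19). The pausing index of Pik3c2b was also negative with centred libraries (-0.0045) and quantile normalization (-0.0053), and that of Foxo1 with centred libraries (-0.015) and unscaled reads (-0.0090).

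Same-numbered libraries did not deviate together (gene body r = -0.15, -0.17 and -0.33), so the numbers were not taken as pairs. With the replicate number as a block, 0 of all genes were called in either region with limma, the 8 genes and the other pathway genes among them, and the paired ratios were 0.17, 0.02, 0.24 and 0.59. Depth limited the TSS values of Pik3ca, Pik3c2b and Foxo3 most.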
